A study of Mus musculus with 10 samples.

Results

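The cyclin-dependent kinase (CDK) inhibitors and the retinoblastoma (Rb) family form the brake on entry into the cell cycle, and their transcripts were followed here in primary mouse embryonic fibroblasts that had lost a subunit of the SWI/SNF chromatin remodelling complex. The genes were chosen by symbol, as the Cip/Kip inhibitors Cdkn1a, Cdkn1b and Cdkn1c, the Ink4 inhibitors Cdkn2a, Cdkn2b, Cdkn2c and Cdkn2d, and the pocket proteins Rb1, Rbl1 and Rbl2. These 10 genes, of 12393 with a probe set of their own on the array, were measured by 14 of 20380 such probe sets. A total of 6 genes had 1 probe set, and Cdkn1a, Cdkn1b, Rbl1 and Rbl2 had 2 each. Of the 14 probe sets, 11 exceeded the array background on all 10 arrays.

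RNA was hybridized from 3 wild type, 3 Snf5-/- and 4 Brg1-/- samples to 10 Affymetrix arrays. All groups were fibroblasts of E13.5 embryos on a mixed C57BL/6 and 129 background, and the protocol given for every sample, wild type included, was infection with a Cre retrovirus followed by selection in puromycin at 2.5 ug/ml. Snf5 (gene Smarcb1) is a core subunit of SWI/SNF and Brg1 (gene Smarca4) is one of its alternative ATPases. The labels do not say whether replicates came from separate embryos or cultures, so a p-value here reflects array-to-array spread alone, which may be technical. In bulk RNA, fewer cells of a type and less RNA per cell cannot be told apart.

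As background, D-type cyclins with Cdk4 or Cdk6, and then cyclin E with Cdk2, phosphorylate the pocket proteins, which releases E2F factors and lets the genes of DNA synthesis be transcribed. Ink4 proteins bind Cdk4 and Cdk6, while Cip/Kip proteins bind cyclin complexes more widely. In cultured mouse embryonic fibroblasts the Cdkn2a locus, which encodes p16Ink4a and p19Arf from separate first exons, is known for driving senescence, and Snf5 is reported to regulate p16.

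Promoter sequence is shown for the members that passed a test below and for Cdkn2a, since the series asks about nucleosomes at promoters. Windows of 250 bases before the start site were taken from RefSeq (GRCm38.p6) and were matched for 8 of the 10 members, with 11 windows in all. No window was matched for Cdkn1c or Rb1, so their sequence is not shown although both passed a test. Capitals mark matches, on either strand, to an E2F word (TTTCGCGC or TTTGGCGC), a cell cycle homology word bound by the MuvB complex (TTTGAA or TTCGAA), a GC box (GGGCGG) or a pair of p53 core words (CATG, then any 6 bases, then CATG). The p53 pair was added after the windows had been read. Of 32851 windows of the same length, these letters occurred in 0.654%, 17.1%, 32.7% and 0.49%, in that order.
Cdkn1a, chr17:29090729-29090978, plus strand: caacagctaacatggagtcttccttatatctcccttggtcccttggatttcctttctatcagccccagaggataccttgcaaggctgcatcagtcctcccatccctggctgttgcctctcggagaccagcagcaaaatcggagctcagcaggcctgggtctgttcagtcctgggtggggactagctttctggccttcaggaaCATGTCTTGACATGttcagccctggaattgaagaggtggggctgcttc
Cdkn1a, chr17:29093519-29093768, plus strand: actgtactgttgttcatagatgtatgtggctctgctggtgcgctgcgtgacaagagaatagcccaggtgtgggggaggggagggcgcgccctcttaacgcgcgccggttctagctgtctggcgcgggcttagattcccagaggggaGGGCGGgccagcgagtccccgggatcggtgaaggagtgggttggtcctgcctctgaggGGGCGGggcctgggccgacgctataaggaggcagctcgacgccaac
Cdkn2a (upstream start, that of p19Arf), chr4:89294620-89294869, minus strand: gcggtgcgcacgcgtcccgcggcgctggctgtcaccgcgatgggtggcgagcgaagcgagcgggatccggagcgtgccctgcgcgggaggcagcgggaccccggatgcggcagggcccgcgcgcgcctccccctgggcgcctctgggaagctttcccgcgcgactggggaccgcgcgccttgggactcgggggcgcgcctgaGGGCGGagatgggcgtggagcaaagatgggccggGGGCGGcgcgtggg
Cdkn2a (downstream start, that of p16Ink4a), chr4:89282193-89282442, minus strand: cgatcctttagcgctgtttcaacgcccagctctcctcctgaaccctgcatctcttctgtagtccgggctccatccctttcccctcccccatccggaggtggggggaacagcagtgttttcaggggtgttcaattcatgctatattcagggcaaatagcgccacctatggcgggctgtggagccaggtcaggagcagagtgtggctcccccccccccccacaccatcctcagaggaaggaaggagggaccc
Cdkn2b, chr4:89311033-89311282, minus strand: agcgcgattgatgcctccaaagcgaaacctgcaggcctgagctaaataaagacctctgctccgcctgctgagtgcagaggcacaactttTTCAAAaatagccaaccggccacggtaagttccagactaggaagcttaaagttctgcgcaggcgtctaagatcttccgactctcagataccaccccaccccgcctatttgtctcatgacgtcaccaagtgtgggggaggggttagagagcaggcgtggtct
Cdkn2c, chr4:109666757-109667006, minus strand: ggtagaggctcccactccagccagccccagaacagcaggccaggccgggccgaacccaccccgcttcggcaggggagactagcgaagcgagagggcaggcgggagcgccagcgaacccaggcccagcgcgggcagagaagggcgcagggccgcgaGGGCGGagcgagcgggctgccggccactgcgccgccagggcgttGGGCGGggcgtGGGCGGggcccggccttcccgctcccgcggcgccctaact
Cdkn2c, chr4:109665373-109665622, minus strand: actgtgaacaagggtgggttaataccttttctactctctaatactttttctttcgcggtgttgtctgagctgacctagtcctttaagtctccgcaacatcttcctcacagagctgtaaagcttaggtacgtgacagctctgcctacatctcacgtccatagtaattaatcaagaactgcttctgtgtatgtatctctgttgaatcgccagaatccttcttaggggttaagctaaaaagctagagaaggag
Cdkn2d, chr9:21291210-21291459, minus strand: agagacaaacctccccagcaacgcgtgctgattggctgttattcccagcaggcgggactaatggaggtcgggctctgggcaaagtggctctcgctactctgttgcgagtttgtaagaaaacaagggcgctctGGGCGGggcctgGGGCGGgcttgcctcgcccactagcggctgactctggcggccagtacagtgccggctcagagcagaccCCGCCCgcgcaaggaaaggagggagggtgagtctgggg
Rbl1, chr2:157204535-157204784, minus strand: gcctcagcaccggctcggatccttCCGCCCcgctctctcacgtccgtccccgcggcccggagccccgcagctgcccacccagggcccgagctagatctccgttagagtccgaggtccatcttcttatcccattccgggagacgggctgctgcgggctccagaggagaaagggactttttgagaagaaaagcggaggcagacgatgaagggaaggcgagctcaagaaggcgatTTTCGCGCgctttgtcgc
Among the 11 windows of the members, the E2F word was found in that of Rbl1, 18 to 11 bases before the start. The p53 pair lay 48 to 35 bases before the upstream start of Cdkn1a, which is the textbook p53 target among cell cycle inhibitors. The upstream window of Cdkn2c and that of Cdkn2d each held 3 GC boxes, which are the words bound by Sp1, and the downstream window of Cdkn2c held none of the words. These matches are letters in a window and do not show binding.

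Deposited intensities were not on a common level between the groups. The median intensity per array averaged 208 ± 22.6 for wild type, 173 ± 14.3 for Snf5-/- and 156 ± 12.1 for Brg1-/- (SD over 3, 3 and 4 arrays). As deposited, the median probe set had a log2 change from wild type of -0.28 in the Snf5-/- cells and of -0.45 in the Brg1-/- cells. Quantile normalization brought these medians to -0.01 and 0.00. Values below are quantile-normalized intensities unless the deposited scale is named, so each change is relative to the array as a whole. Array background, the highest of 27 Bacillus control probe sets, lay between 26.7 and 57.4. All 14 measured fibroblast markers exceeded it on every array, and their changes between the groups are given with the other markers below. Smarcb1 was at 757, 753 and 846 in wild type and at 301, 301 and 303 in Snf5-/-, and Smarca4 was at 2459, 2108 and 2118 in wild type and between 452 and 695 in Brg1-/-.

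The loss of either subunit was accompanied by changes in the inhibitors that differed between genes of the same family. Brg1-/- fibroblasts had less Cdkn1a, Cdkn1c and Cdkn2b RNA and more Cdkn2c RNA than wild type on both scales. Snf5-/- fibroblasts had more Cdkn2c RNA on both scales, and no fall of a member passed there. After Benjamini-Hochberg adjustment in limma, 7 of the 14 probe sets passed in Brg1-/- (3 higher and 4 lower, from 6 genes), where 14.9% of all probe sets passed (7.65% higher and 7.22% lower). In Snf5-/-, 3 of 14 passed, all higher, where 9.48% of all probe sets passed (4.99% higher). Without wild type replicate 2, wild type replicate 3 or Snf5-/- replicate 3, that count was 1. As deposited, 5 passed in Brg1-/- (1 higher and 4 lower), against 27.3% of all probe sets (1.91% higher and 25.4% lower), and 1 was higher in Snf5-/-, against 10.8% (1.62% higher). These 5 and 1 had also passed after normalization. Both comparisons share the 3 wild type arrays.

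**Figure D1:**
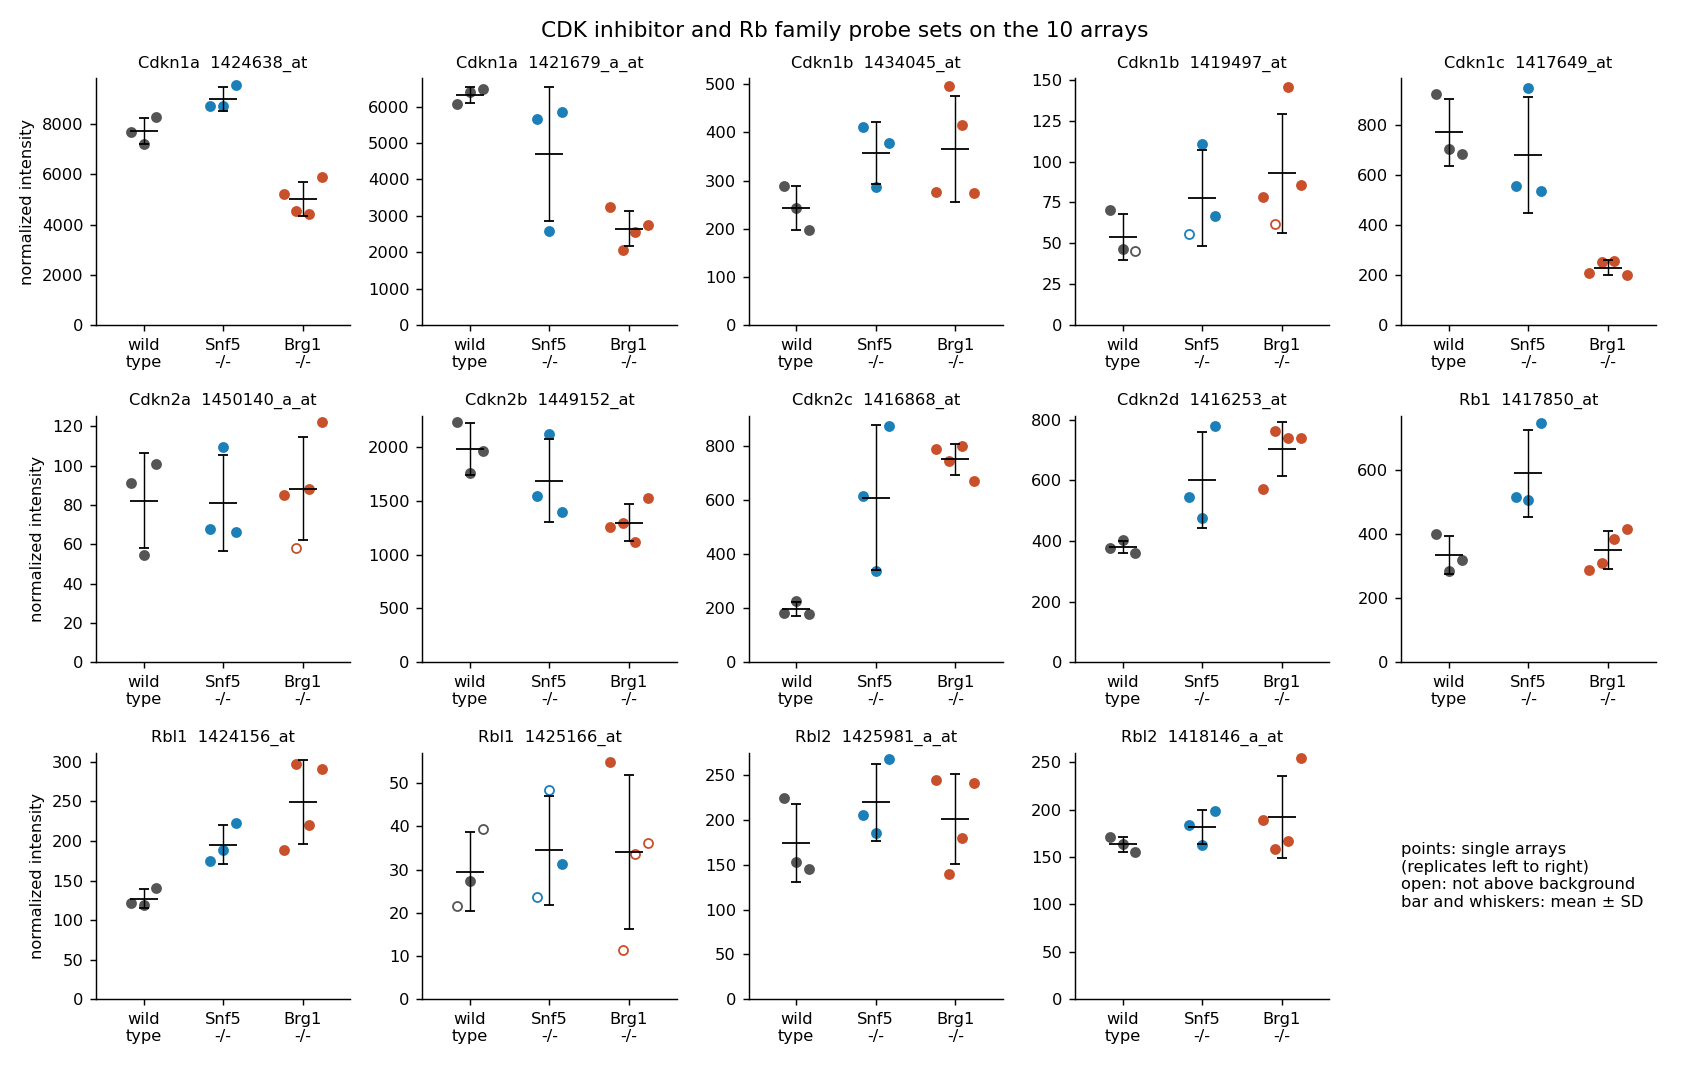
Quantile-normalized intensity (linear axis from 0, arbitrary units) of each of the 14 probe sets on the 3 wild type, 3 Snf5-/- and 4 Brg1-/- arrays. Points are single arrays, open where not above background, and bars give the mean ± SD. The Brg1-/- arrays lie below all others for Cdkn1c and for 1424638_at of Cdkn1a, and the wild type arrays lie below all others for Cdkn2c, Cdkn2d and 1424156_at of Rbl1.

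Among the Cip/Kip genes, Cdkn1a (p21, which inhibits Cdk2 complexes and binds PCNA; chr17:29090979-29100722) was lower in Brg1-/- by both of its probe sets. The first, 1424638_at, was at 7683, 7213 and 8271 in wild type, at 8699, 8714 and 9548 in Snf5-/-, and at 5229.6, 4531, 4427 and 5884 in Brg1-/-. All 4 Brg1-/- arrays lay below the 6 others, and the 3 Snf5-/- arrays lay above those of wild type. The group means were 7722 ± 530.1, 8987 ± 486 and 5018 ± 678 (SD, n = 3, 3 and 4). In Brg1-/- the log2 intensity fell by 0.63 ± 0.10 (SE, adjusted p = 0.00168 by limma), and on the deposited scale it fell by 1.26. In Snf5-/- its log2 change of 0.22 ± 0.11 did not pass (adjusted p = 0.267) and turned to -0.11 on the deposited scale. The difference between the mutants, Brg1-/- minus Snf5-/-, was -0.85 ± 0.10 (adjusted p = 0.00343) and passed on the deposited scale as well, at -1.14.

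The second Cdkn1a probe set, 1421679_a_at, was at 6069.7, 6393 and 6473 in wild type, at 5670.4, 2571 and 5860.2 in Snf5-/-, and at 3232, 2071, 2546 and 2748 in Brg1-/-. The Brg1-/- arrays were again below all wild type arrays. The 3 Snf5-/- arrays also lay below wild type, and replicate 2 of them lay among the Brg1-/- arrays. The log2 intensity fell by 1.27 ± 0.24 in Brg1-/- (adjusted p = 0.0042 by limma). In Snf5-/- the change of -0.52 ± 0.26 did not pass (adjusted p = 0.263), and without replicate 2 it was -0.13. The difference between the mutants was -0.75 ± 0.24 and did not pass (adjusted p = 0.141). It passed without Snf5-/- replicate 2, at -1.14 (adjusted p = 0.00663). Relative to each probe set's own mean over the arrays, Snf5-/- replicate 2 deviated by 0.36 (log2) for the first and by -0.63 for the second, so the probe sets disagreed on that array.

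That array also stood apart in other cell type markers. Its summed intensity over the 15 measured leukocyte markers was 12781, against 3459 and 3644 in the other Snf5-/- arrays, 3008 to 6396 in wild type and 2907 to 6817 in Brg1-/-. Between 11 and 14 of these 15 markers exceeded background on each array. The part of this in the Cdkn1a, Cdkn1c and Cdkn2b values was not tested. Every call in Brg1-/- against wild type that is described for Cdkn1a, Cdkn1c, Cdkn2b and Cdkn2c was also made without that array. Since the array is in neither of those groups, it enters that comparison only through the normalization and the shared spread. Leaving it out therefore does not bear on leukocyte RNA in the arrays compared.

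Cdkn1c (p57, the Cip/Kip inhibitor of the imprinted domain on distal chromosome 7; chr7:143458339-143461059) had the strongest fall among the members in Brg1-/-. It was at 924, 703 and 684 in wild type, at 554, 947 and 537 in Snf5-/-, and at 207, 252, 256 and 200.3 in Brg1-/-. The 4 Brg1-/- arrays lay well below all 6 others, while the wild type and Snf5-/- arrays overlapped through Snf5-/- replicate 2 alone. Group means were 770.2 ± 134, 679 ± 232 and 229 ± 29.3 (SD, n = 3, 3 and 4). Its log2 intensity fell by 1.75 ± 0.20 in Brg1-/- (3.36-fold, adjusted p = 0.000172 by limma), and on the deposited scale it fell by 2.21. In Snf5-/- the change was -0.22 ± 0.22 (adjusted p = 0.613, 95% interval -0.69 to 0.25), and without Snf5-/- replicate 2, the array with the high leukocyte sum, it was -0.48 ± 0.18 (adjusted p = 0.121). The mutants differed by -1.53 ± 0.20 (adjusted p = 0.00583).

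Cdkn1c is neighboured by other genes of an imprinted domain. Of 14 measured genes of the domain, 2 were higher and 2 lower in Brg1-/-, and 1 was higher and 1 lower in Snf5-/-, where 16.4% (8.75% higher and 7.62% lower) and 10.3% (6.1% higher and 4.24% lower) of all genes, taken at 1 probe set each, passed. As deposited, 29.2% of all genes passed in Brg1-/- (2.07% higher and 27.1% lower) and 10.5% in Snf5-/- (1.86% higher and 8.67% lower), and 7 of the 14 were lower and none higher in Brg1-/-, while 1 was higher and 2 were lower in Snf5-/-. No gene of the domain was higher in Brg1-/- without wild type replicate 1 or 2 or without Brg1-/- replicate 2 or 3. These shares over all genes are the background for the gene lists below as well. Tnfrsf23, a decoy receptor of the tumour necrosis factor receptor family, fell by 1.41 ± 0.24 (SE, log2) in Brg1-/- (adjusted p = 0.00199) and by 1.57 ± 0.25 in Snf5-/- (adjusted p = 0.00276). Igf2, the paternally expressed growth factor, rose by 0.75 ± 0.08 in Snf5-/- (adjusted p = 0.000246), and its change of 0.28 in Brg1-/- turned to -0.18 on the deposited scale.

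Cdkn1b (p27, the Cip/Kip inhibitor linked to quiescence; chr6:134920401-134925525) passed in neither mutant. Its brighter probe set 1434045_at was at 288, 244 and 198 in wild type, at 410.3, 286 and 378 in Snf5-/-, and at 276, 497, 416 and 274 in Brg1-/-. The groups overlapped, with 1 Snf5-/- array and 2 Brg1-/- arrays inside the wild type range. The log2 change was 0.56 in both mutants (SE 0.25 and 0.24, adjusted p = 0.21 in Snf5-/- and 0.147 in Brg1-/-), with 95% intervals of 0.01 to 1.11 and 0.04 to 1.07. The dimmer probe set 1419497_at exceeded background on 7 arrays and gave 0.49 ± 0.41 in Snf5-/- and 0.74 ± 0.38 in Brg1-/-. The p27 protein is controlled largely by its turnover, which these arrays do not measure.

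Cdkn2a (p16Ink4a and p19Arf; chr4:89274473-89294619), the member for which regulation by Snf5 is reported, did not differ between the groups beyond the spread of the arrays. Its probe set 1450140_a_at was at 91.2, 54.7 and 101 in wild type, at 67.6, 109 and 66.3 in Snf5-/-, and at 85.1, 58.0, 88.0 and 122 in Brg1-/-. The 3 groups overlapped throughout, and the probe set was dim, above background on 9 of the 10 arrays. The log2 change was -0.01 ± 0.38 in Snf5-/- (adjusted p = 0.992, 95% interval -0.84 to 0.82) and 0.10 ± 0.36 in Brg1-/- (adjusted p = 0.895, interval -0.67 to 0.88). As deposited, these were -0.26 and -0.30, neither called. A change within these intervals was not detectable with these arrays. The annotation gives the probe set the gene symbol alone, so p16Ink4a and p19Arf cannot be told apart.

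Cdkn2b (p15, an Ink4 inhibitor induced by transforming growth factor beta; chr4:89306289-89311032) lies 11.7 kb from Cdkn2a. It was at 2235, 1756 and 1959 in wild type, at 1549, 2119.6 and 1395 in Snf5-/-, and at 1259, 1295, 1115 and 1523 in Brg1-/-. All Brg1-/- arrays lay below all wild type arrays, and the Snf5-/- arrays reached into wild type through replicate 2. Group means were 1983 ± 241, 1688 ± 382 and 1298 ± 169 (SD, n = 3, 3 and 4). Its log2 intensity fell by 0.61 ± 0.15 in Brg1-/- (adjusted p = 0.0158 by limma), and on the deposited scale it fell by 1.19. Leaving out wild type replicate 1 or wild type replicate 3 ended the call (adjusted p = 0.0774 and 0.0529). The call was also lost in eBayes without the intensity trend (0.0654). In Snf5-/- the change of -0.25 ± 0.16 did not pass (adjusted p = 0.396), and without Snf5-/- replicate 2 it was -0.43 ± 0.14 (0.0873). Also not past the threshold was the difference between the mutants, -0.36 ± 0.15 (adjusted p = 0.239).

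The other Ink4 genes went the other way. Cdkn2c (p18, an Ink4 inhibitor expressed in many proliferating tissues; chr4:109660876-109666756) was at 182, 226 and 179 in wild type, at 613, 337 and 873 in Snf5-/-, and at 789, 742, 797 and 669.5 in Brg1-/-. Every mutant array lay above every wild type array, and Snf5-/- replicate 2 was the lowest of the mutant arrays. Group means were 196 ± 26.1, 608 ± 268 and 749 ± 58.6 (SD, n = 3, 3 and 4). Its log2 intensity rose by 1.54 ± 0.27 in Snf5-/- (2.9-fold, adjusted p = 0.00406) and by 1.94 ± 0.25 in Brg1-/- (3.84-fold, adjusted p = 0.000319). As deposited, the rises were 1.28 (adjusted p = 0.0166) and 1.49 (0.00178). The mutants did not differ beyond their spread, at 0.40 ± 0.25 (adjusted p = 0.45, 95% interval -0.14 to 0.95). Both calls were made on both scales and, after normalization, with each of the 10 arrays left out in turn.

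Cdkn2d (p19Ink4d, the Ink4 inhibitor whose level rises in S phase in cycling cells; chr9:21288459-21291421) was at 376, 403 and 362 in wild type, at 545, 477 and 780.2 in Snf5-/-, and at 573, 763, 739 and 741 in Brg1-/-. Every mutant array lay above every wild type array after normalization, but the groups overlapped on the deposited scale. Its log2 intensity was higher by 0.88 ± 0.17 in Brg1-/- (adjusted p = 0.00397 by limma), and by 0.83 with median centring (0.00604). This dropped to 0.42 on the deposited scale (adjusted p = 0.183). In Snf5-/- the log2 intensity was higher by 0.63 ± 0.18 (adjusted p = 0.0451 by limma). With median centring the rise was 0.61 (0.0601) and on the deposited scale 0.35 (0.386), neither of which passed. Of the 10 fits that left out an array, 8 lost the call in Snf5-/-, with adjusted p up to 0.141 without wild type replicate 3.

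**Figure D2:**
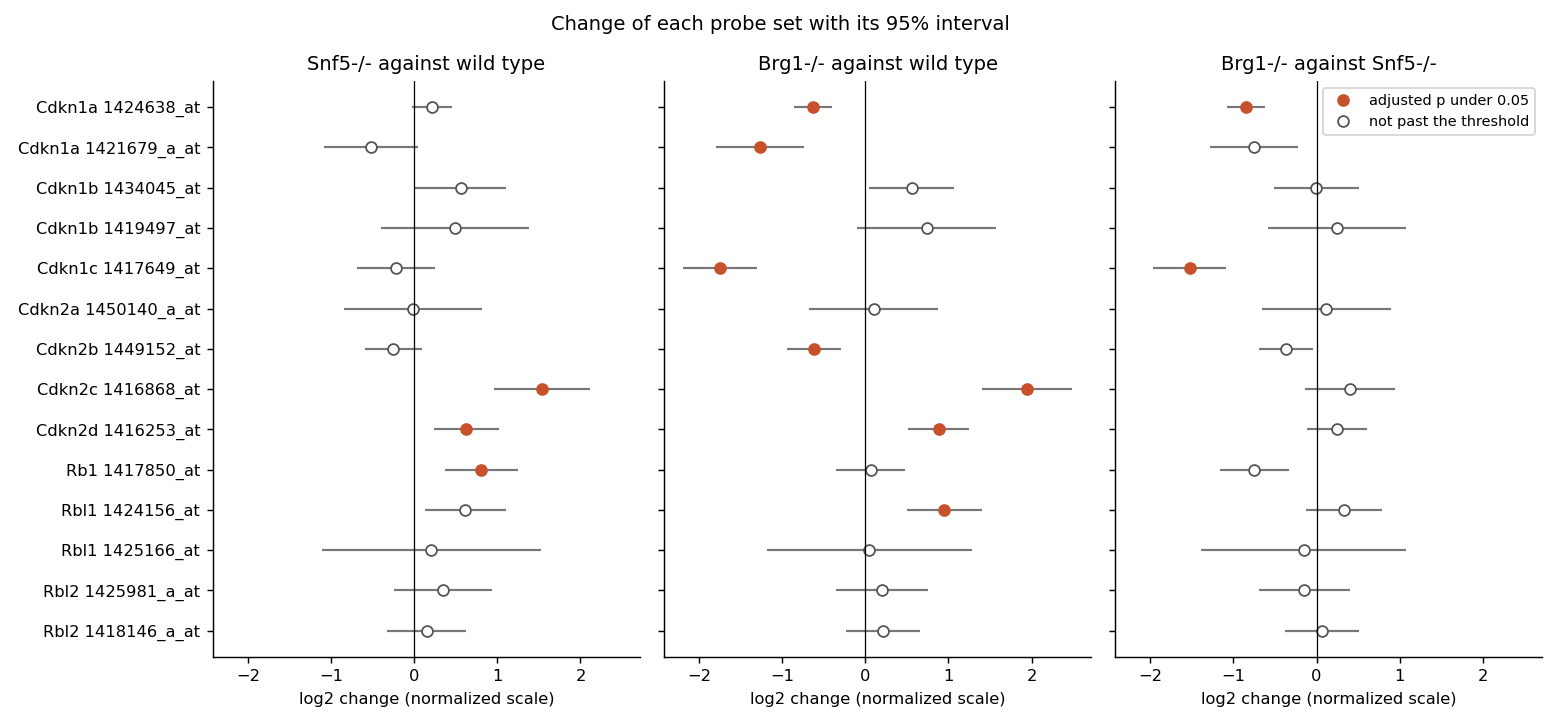
Log2 change (quantile-normalized scale) of each probe set with its 95% interval in the 3 comparisons. Filled points passed an adjusted p of 0.05, open points did not. Cdkn2c, at 1.54 and 1.94, is the rightmost point in both comparisons with wild type, and Cdkn1c, at -1.75 and -1.53, is the leftmost in both comparisons of Brg1-/-.

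Among the pocket proteins, Rb1 (the retinoblastoma protein, which holds activating E2F factors in check; chr14:73192858-73325951) was higher in Snf5-/- after normalization. It was at 399, 283 and 319 in wild type, at 514, 507 and 745 in Snf5-/-, and at 289, 309, 382 and 415 in Brg1-/-. The 3 Snf5-/- arrays lay above all 7 others, and the Brg1-/- arrays overlapped those of wild type. In Snf5-/- the log2 change was 0.81 ± 0.20 (adjusted p = 0.0271 by limma), and 0.53 on the deposited scale, where it did not pass (adjusted p = 0.259). The call was also lost without wild type replicate 2 (0.108), wild type replicate 3 (0.0911) or Snf5-/- replicate 3 (0.0868). In Brg1-/- the change was 0.06 ± 0.19 (adjusted p = 0.878), which turned to -0.38 on the deposited scale. Between the mutants Rb1 differed by -0.75 ± 0.19, which did not pass (adjusted p = 0.0697) but did with a filter on low values (0.0475).

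Rbl1 (p107, a pocket protein whose own gene is an E2F target and whose start site carries the E2F word shown above; chr2:157145893-157204534) was at 121, 119 and 141 in wild type by 1424156_at, at 174, 189 and 222 in Snf5-/-, and at 189, 297, 219.9 and 290.2 in Brg1-/-. All mutant arrays lay above all wild type arrays. In Brg1-/- the log2 change was 0.95 ± 0.21 (adjusted p = 0.00926 by limma), and 0.53 on the deposited scale, where it did not pass (adjusted p = 0.134). In Snf5-/- the change of 0.62 ± 0.22 did not pass (adjusted p = 0.112). The other probe set, 1425166_at, exceeded background on 3 of the 10 arrays, lay between 11.5 and 54.8, and gave 0.05 ± 0.56 in Brg1-/-.

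Rbl2 (p130, the pocket protein prominent in quiescent cells; chr8:91070057-91123844) did not pass in any comparison by either probe set. Over the 10 arrays, 1425981_a_at ranged from 139.8 to 268 and 1418146_a_at from 156 to 255, with overlap of all groups. The log2 changes were 0.35 ± 0.27 and 0.15 ± 0.22 in Snf5-/-, and 0.20 ± 0.25 and 0.21 ± 0.20 in Brg1-/-. The changes in Brg1-/- were -0.23 and -0.20 on the deposited scale, where the median of all probe sets was -0.45. With median centring they were 0.18 and 0.21. None of these passed, so no change of Rbl2 was established.

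The direct comparison of the mutants passed for 2 of the 14 probe sets, both lower in Brg1-/-, where 1.86% of all probe sets passed (0.897% lower). These were the first Cdkn1a probe set and Cdkn1c, described above, and both also passed on the deposited scale, where 0.782% of all probe sets did (0.694% lower). For the other 8 genes the difference between the mutants was not established. Without the intensity trend in eBayes both calls ended, at adjusted p = 0.0569 and 0.0535. By the first Cdkn1a probe set and by Cdkn1c, wild type and Snf5-/- lay above Brg1-/-, while by the second Cdkn1a probe set the mutants were not separated. For Cdkn2c wild type lay below both mutants on both scales, and these were not separated from each other. For Cdkn2d the same order was seen after normalization alone.

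**Figure D3:**
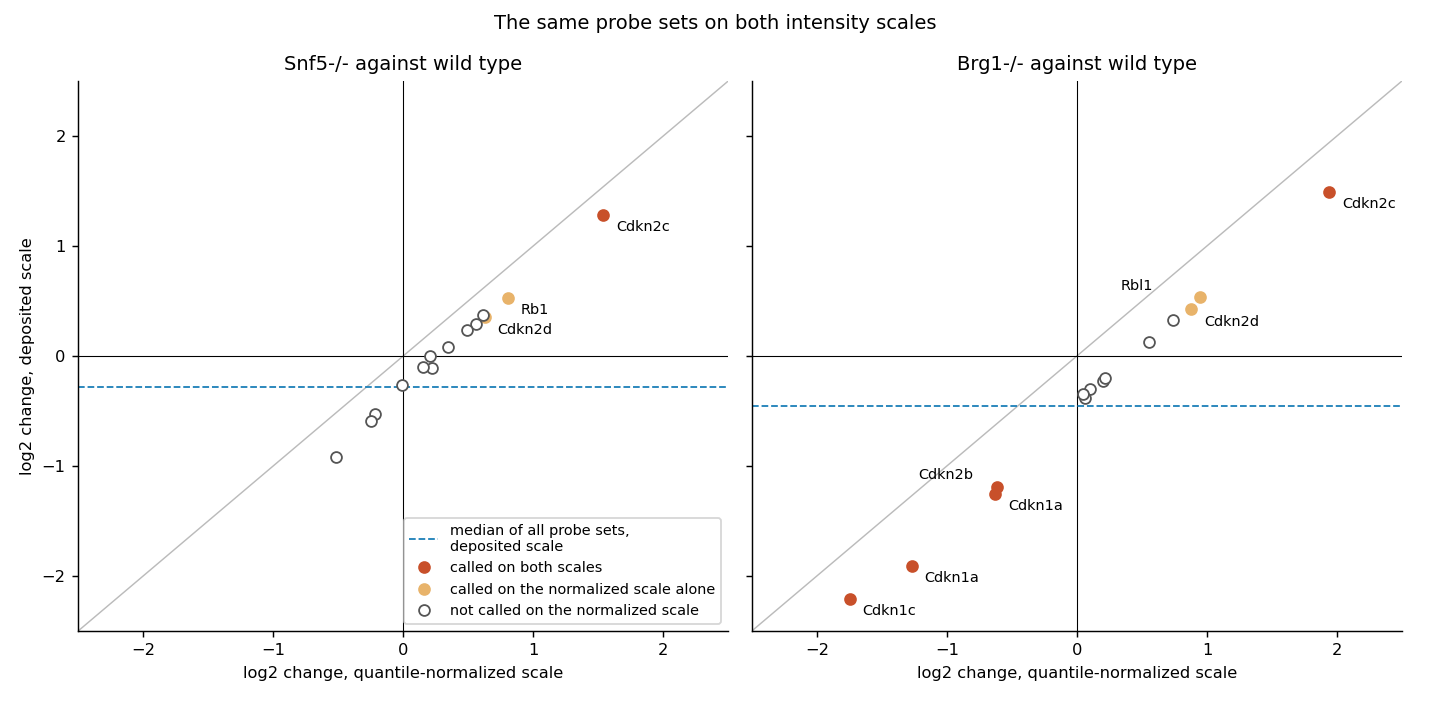
Log2 change of each member probe set against wild type on the quantile-normalized scale (x axis) and on the deposited scale (y axis), for Snf5-/- and Brg1-/-. The grey diagonal marks equal values and the dashed line the median of all probe sets on the deposited scale, -0.28 and -0.45. All points lie below the diagonal, and the falls of Cdkn1a, Cdkn1c and Cdkn2b and the rise of Cdkn2c in Brg1-/- passed on both scales.

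The kinases and cyclins that the inhibitors act on moved in part. Of 19 measured cyclin and CDK genes, 6 were higher and 1 lower in Brg1-/-, and 4 were higher in Snf5-/-. As deposited, 4 were higher and 5 lower in Brg1-/-, and 1 higher and 1 lower in Snf5-/-. Cdk1, the mitotic kinase, rose by 1.18 ± 0.19 (SE, log2) in Snf5-/- and by 1.68 ± 0.17 in Brg1-/- on both scales (adjusted p = 0.00234 and 8.34e-05). Ccna2, cyclin A2 of S and G2 phase, rose by 1.63 ± 0.13 in Brg1-/- (adjusted p = 1.41e-05), and its 0.55 in Snf5-/- passed after normalization alone. The mutants differed in Ccna2 by 1.08 ± 0.13 (adjusted p = 0.00343), which passed on both scales. Of the D-type cyclins and their kinases, Ccnd1 was lower by 0.86 ± 0.21 in Brg1-/- (adjusted p = 0.0153, but 0.0656 without wild type replicate 3). Cdk4 changed in Brg1-/- by 0.44 ± 0.08 after normalization (adjusted p = 0.00251 by limma). On the deposited scale, where the median of all probe sets was -0.45, Cdk4 changed by -0.20, so its direction depended on the scale. Ccne1, Ccne2 and Ccnd3 changed by 0.09, 0.06 and 0.08 in Brg1-/- and did not pass after normalization, though Ccnd3 passed as lower, at -0.52, on the deposited scale. Without wild type replicate 3 no cyclin or CDK gene was called lower in Brg1-/-.

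No E2F factor passed after normalization, while most of the measured E2F targets were higher in Brg1-/-. Of 7 measured E2F and DP genes, none passed in either mutant after adjustment in limma, and 3 had an unadjusted p under 0.05 in each. The median change was -0.24 in Snf5-/-, with 6 of 7 below 0, and 0.00 in Brg1-/-. A total of 1 was lower in each mutant as deposited. E2f1, the best known activator of the family, changed by -0.49 ± 0.15 in Snf5-/- (adjusted p = 0.068) and by 0.00 ± 0.14 in Brg1-/-. It was the factor called lower in Snf5-/- as deposited (adjusted p = 0.0211). Without Brg1-/- replicate 2 or 4, 1 factor passed as lower in Snf5-/- after normalization too. Of 23 measured E2F targets of DNA synthesis, 17 were higher in Brg1-/- and 2 in Snf5-/-, and the list medians were 0.98 and 0.33 against 0.01 for all genes in both. As deposited, 9 and 1 were higher. Mcm5, part of the MCM helicase that opens DNA for replication, rose by 1.49 ± 0.17 in Brg1-/- (adjusted p = 0.000143) on both scales. Without wild type replicate 1 or Snf5-/- replicate 1 no E2F target passed in Snf5-/-.

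G2/M genes, taken as a marker of proliferation, were higher in both mutants. In Brg1-/- 23 of 26 measured genes were higher, with a list median of 1.60, and 21 on the deposited scale. In Snf5-/- 13 of 26 were higher, with a median of 0.84, and 7 on the deposited scale. Without wild type replicate 3 or Snf5-/- replicate 1 the count in Snf5-/- was 8. Ube2c, the ubiquitin-conjugating enzyme of mitotic exit, rose by 1.97 ± 0.12 in Brg1-/- and by 1.03 ± 0.12 in Snf5-/- (SE, log2). The mutants differed in Ube2c by 0.94 ± 0.12 (adjusted p = 0.00381), which did not pass on the deposited scale (0.0604). Of 6 measured genes of the MuvB complex and its activators, 2 were higher in Brg1-/- (none higher and 1 lower as deposited), and in Snf5-/- none passed in limma, with 0 at an unadjusted p under 0.05, and 1 passed without Snf5-/- replicate 2. Foxm1, a transcription factor of G2 genes, was higher by 1.01 ± 0.17 in Brg1-/- (adjusted p = 0.00223), which did not pass on the deposited scale (0.0839). In Brg1-/-, Cdkn2c, Cdkn2d and Rbl1 were thus higher, and Cdkn1a, Cdkn1c and Cdkn2b lower, on arrays on which proliferation genes were also higher. Of these members, Cdkn2c and Cdkn2d passed in Snf5-/-. The part of proliferation in the members' values was not tested.

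**Figure D4:**
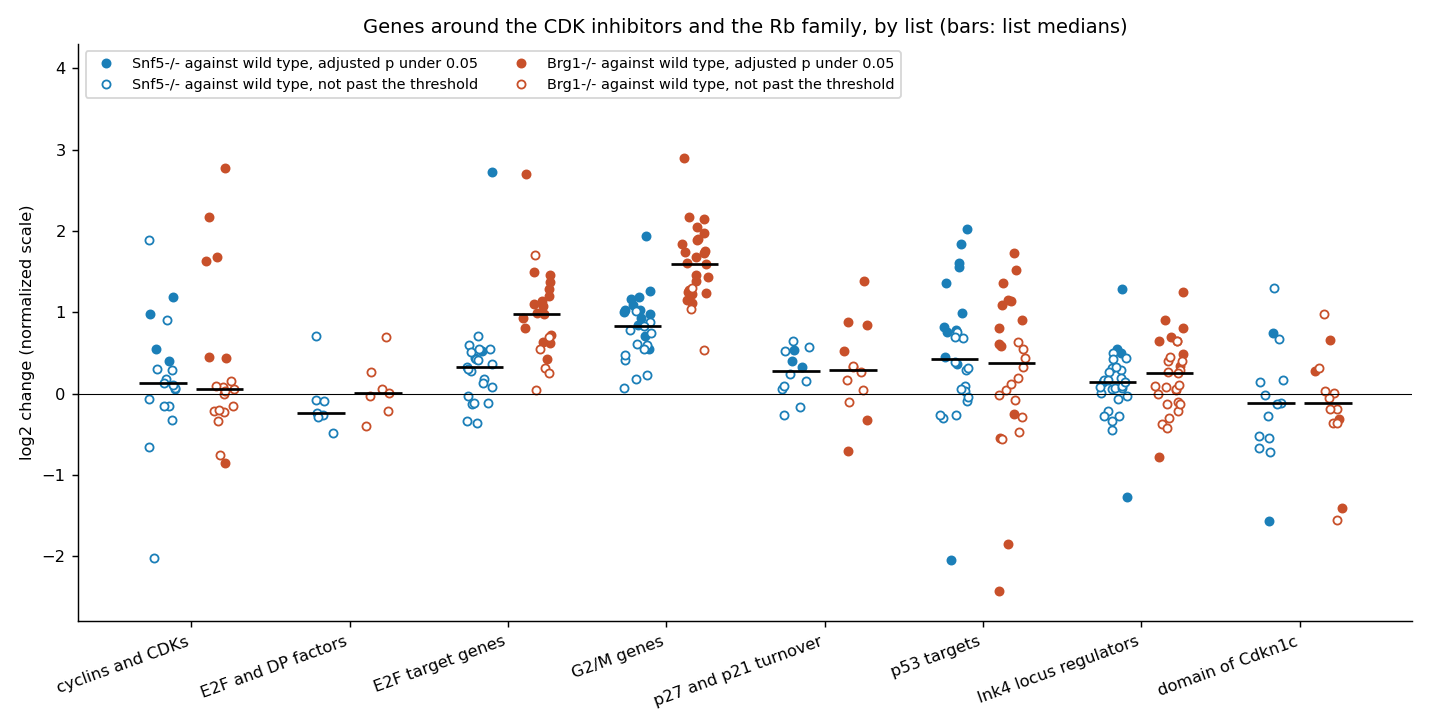
Log2 change (quantile-normalized scale) of each gene of 8 lists around the CDK inhibitors and the Rb family, in Snf5-/- (blue) and Brg1-/- (orange) against wild type. Filled points passed an adjusted p of 0.05, open points did not, and bars are list medians. The E2F target and G2/M medians in Brg1-/- are 0.98 and 1.60, and no point of the E2F and DP list is filled.

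Regulators of the inhibitors changed in both directions. Of 26 p53 targets other than Cdkn1a, 11 were higher and 1 lower in Snf5-/-, and 10 higher and 4 lower in Brg1-/-. As deposited, these counts were 5 and 2, and 5 and 8. The lower count in Brg1-/- was 1 without wild type replicate 1 or wild type replicate 2. Btg2, an antiproliferative p53 target, rose by 2.02 ± 0.19 in Snf5-/- and by 1.36 ± 0.17 in Brg1-/- (SE, log2). Cdkn1a was lower in Brg1-/-, and in Snf5-/- its 2 probe sets gave 0.22 and -0.52, neither of which passed. Dcxr, a carbonyl reductase, rose by 1.84 ± 0.12 in Snf5-/- and by 1.72 ± 0.11 in Brg1-/-. Perp, a membrane protein of p53-dependent cell death, fell by 2.04 ± 0.26 and fell by 2.43 ± 0.24 in Snf5-/- and Brg1-/-. These changes of Btg2, Dcxr and Perp passed on both scales. Of 10 measured p53 regulators, 2 were higher and 1 lower in Brg1-/-, and 1 was lower in Snf5-/-. As deposited, 3 were lower and none was higher in Brg1-/-, and 1 was lower in Snf5-/-. Without wild type replicate 3 no p53 regulator was higher or lower in Brg1-/-.

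Among 29 measured regulators of the Ink4 locus, 7 were higher and 1 lower in Brg1-/-, and 3 higher and 1 lower in Snf5-/-. As deposited, these counts were 1 and 6, and 1 and 2. The higher count in Brg1-/- was 4 without wild type replicate 2 or 3. Rnf2, the catalytic subunit of Polycomb repressive complex 1, rose by 1.29 ± 0.16 (SE, log2) in Snf5-/- (adjusted p = 0.000545) and by 1.25 ± 0.15 in Brg1-/- (adjusted p = 0.000243), on both scales. Ezh2, the Polycomb methyltransferase, was higher by 0.69 ± 0.15 in Brg1-/- after normalization (adjusted p = 0.00831) and by 0.21 on the deposited scale, where it did not pass. Hmga2, a chromatin protein known to hold the locus down in young stem cells, fell by 0.78 ± 0.15 in Brg1-/- (adjusted p = 0.00491) on both scales. Of 5 measured genes beside Cdkn2a and Cdkn2b, Klhl9 passed after normalization, at 0.54 in Snf5-/- and 0.40 in Brg1-/-, and the latter turned to -0.16 on the deposited scale. Both Klhl9 calls were lost without any 1 of the 3 wild type arrays.

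For the turnover of p27 and p21, 4 of 12 measured ubiquitin ligase genes were higher and 2 lower in Brg1-/-, and 3 were higher in Snf5-/-. As deposited, 4 were lower in Brg1-/- and 1 was lower in Snf5-/-, with none higher. The higher count in Snf5-/- was 1 without wild type replicate 2 or 3. Cul4a, the scaffold of the ligase that degrades p21 in S phase, fell by 0.71 ± 0.11 (SE, log2) in Brg1-/- (adjusted p = 0.0015) on both scales. Skp2, the receptor that marks p27 for destruction, was higher by 0.87 ± 0.20 in Brg1-/- (adjusted p = 0.0105), or 0.44 on the deposited scale, where it did not pass. Of 16 transcription factors of Cdkn1a and Cdkn1b, 3 were higher in each mutant, namely Sp1, Smad4 and Men1, and none of these passed on the deposited scale. As deposited, 3 factors of the list were lower in Brg1-/- and none was higher. Without wild type replicate 1 or 3 the higher count in Snf5-/- after normalization was 1. Of 14 chromatin partners of the Rb family, 2 were higher in each mutant, and on the deposited scale 4 were lower in Brg1-/-. No partner was higher in Snf5-/- without wild type replicate 2 or 3. Dnmt1, the maintenance DNA methyltransferase, was higher by 0.84 ± 0.12 in Brg1-/- (adjusted p = 0.000812), or 0.30 on the deposited scale, where it did not pass.

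Markers of other cell types were measured beside these results. The summed intensity of 10 skeletal muscle markers was 5343 to 6436 in wild type, 964 to 2353 in Snf5-/- and 686 to 1054 in Brg1-/-. Between 4 and 8 of these markers exceeded background on each array, and Tnnt1 and Mylpf did so on none. Acta1, skeletal muscle actin, carried most of the sum, with group means of 4825 (wild type), 829 (Snf5-/-) and 349 (Brg1-/-). It was the 1 muscle marker that passed in either mutant after normalization, and the means of Actc1, cardiac actin, were 218, 288 and 132 in the same order. As deposited, 5 muscle markers were lower in Brg1-/- and 1 in Snf5-/-, with none higher. The sum of 11 epithelial markers was 1523 to 1973 in wild type, 1145 to 1701 in Snf5-/- and 872 to 1079.8 in Brg1-/-, with Epcam below background on all arrays. On either scale, 4 epithelial markers were lower in Brg1-/- and 1 in Snf5-/-, with none higher. The sum of 8 chondrocyte and osteoblast markers was 811 to 964 in wild type, 1256 to 1455 in Snf5-/- and 861 to 1342 in Brg1-/-. That of 8 neuronal markers was 2253 to 2839 in wild type, 1804 to 2234 in Snf5-/- and 1671 to 2136 in Brg1-/-. That of 8 endothelial markers was 615 to 665 in wild type, 500.03 to 592 in Snf5-/- and 504 to 654 in Brg1-/-. That of the 14 fibroblast markers was 109195 to 123216 in wild type, 127633 to 137207 in Snf5-/- and 95175 to 122182 in Brg1-/-. Of these 14, 2 were higher and 3 lower in Brg1-/-, and 4 higher and 1 lower in Snf5-/-. As deposited, these counts were 0 and 6, and 2 and 2. The muscle, epithelial and neuronal sums of all Brg1-/- arrays lay below those of all wild type arrays. In Snf5-/- this held for the muscle and neuronal sums. The leukocyte sums of Brg1-/-, 2907 to 6817, enclosed the wild type range of 3008 to 6396. Fibroblast sums overlapped between Brg1-/- and wild type. Cdkn1a, Cdkn1c and Cdkn2b were lower in Brg1-/-, and the part of these cell types in that was not tested.

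A pool of 7906 genes was taken, each with a mean log2 value over the 10 arrays at or above the 40th percentile of all probe sets. The genes of this pool whose profile over the arrays was most like that of a member were found by Pearson correlation of log2 values. For Cdkn1a these were Pex13 (r = 0.984), Smarca4 (0.969) and Calhm2 (0.956). Smarca4 is the gene deleted in the Brg1-/- cells. For Cdkn2c they were Mrpl24 (0.981), Rps27l (0.975) and Epb41l2 (0.974), for Cdkn2d Ckap2 (0.981), Nfib (0.970) and Mrps17 (0.969), and for Cdkn2b Slc9a3r2 (0.977), Smim3 (0.960) and Myo18a (0.957). For Cdkn2a the closest was Smim26, at 0.828. These values are a description, since the 10 points share 3 groups and the genes were picked as the highest of many.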

How the data were processed

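Expression was measured on 10 Affymetrix arrays. Each value the authors deposited is a MAS5 intensity per probe set, linear and not log-transformed (MAS5 per the submitters' processing notes). Its version and scaling target are not given in the sources used here. This table holds 22690 probe sets with 0 missing values. Probe sets were named from the array annotation supplied: 20380 carried 1 symbol, 691 several and 1555 none. Linear intensities of all 22690 probe sets were quantile-normalized and then log2-transformed. After removal of 64 controls, 22626 probe sets were fitted with limma 3.58.1 in R 4.3.3 (group means, eBayes with trend, 7 residual degrees of freedom), with no filter or pseudocount. Tests were two-sided, with Benjamini-Hochberg adjustment within each of 3 comparisons at 0.05. The fit was tested on simulated data. For pathway lists, the brightest probe set stood for a gene. Named list genes were up to 4 per list with the smallest adjusted p past the threshold, plus any cyclin, CDK or E2F gene, and the 3 genes of highest correlation with a member. The number of arrays limits the precision. Members and lists were chosen with earlier results of these data known. Alternatives were the deposited scale, median centring, a pseudocount of 16, a filter at the 40th percentile in 3 arrays, 1 probe set per gene, eBayes without trend, fits of 2 groups, a replicate block and leaving out each array.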

Additional observations from a re-analysis of the deposited data

Results flagged for a closer look

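Within a group of 4 Brg1-/- arrays, replicate 1 lay apart for Cdkn2d, at a normalized intensity of 573 against 739, 741 and 763 in the others. On the log2 scale its gap to the nearest array was 0.891 of the group's whole range, above Dixon's 95% critical value for 4 samples. Of the members, 14 probe sets were examined in this way, and chance marks about 1 group in 20. The effect of Brg1 loss differed from that of Snf5 loss, by a test of the difference in limma, for the first Cdkn1a probe set by -0.8491 (log2, adjusted p = 0.00343) and for Cdkn1c by -1.5284 (adjusted p = 0.00583).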

How the results depend on the processing

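On the deposited scale, with no normalization between arrays, 1 member probe set passed in Snf5-/- in place of 3, 6187 of all probe sets passed in Brg1-/- in place of 3366 and 177 in place of 421 between the mutants. The split of calls over all probe sets moved from 1129 higher and 1015 lower to 366 and 2081 in Snf5-/-, from 1732 and 1634 to 433 and 5754 in Brg1-/-, and from 218 and 203 to 20 and 157 between the mutants. With median centring the splits were 860 and 1049, 1247 and 1998, and 102 and 179. Smarcb1 in Brg1-/- turned from 0.45 to -0.0779 (adjusted p = 0.758) on the deposited scale. The cause of these shifts was not tested. With eBayes without the trend, 1 member passed in Snf5-/-, 0 passed in limma between the mutants (4 at an unadjusted p under 0.05), and 1127 of all probe sets passed in Snf5-/- and 44 between the mutants. With 1 probe set per gene, where fewer features are tested, 1379 and 2175 passed in Snf5-/- and Brg1-/-, and with the 2 mutant groups alone, with fewer samples, 107 passed between them. Leaving out each array in turn gave 1 to 3 members in Snf5-/-, 6 to 7 in Brg1-/- and 2 to 3 between the mutants, and 1087 to 2208, 2187 to 3645 and 87 to 597 of all probe sets. In deviations from their group means, same-numbered arrays of different groups correlated at -0.088 to 0.124 and differently numbered ones at -0.156 to 0.125. With so few arrays per group, this cannot settle whether the replicate numbers pair the arrays. With the replicate block 2, 7 and 2 members passed, and 2033, 3022 and 471 of all probe sets. The Cdkn2d call in Snf5-/- was lost there (adjusted p = 0.0605), under median centring (0.0601), without the trend (0.1096) and in the fit of 2 groups (0.0929). Of 843 values of single probe sets under the alternatives, 810 stayed on their side of the threshold, of which 769 kept their sign and 41, called in neither fit, changed it. A further 28 lost the call, 4 gained it and 1 that had been called, Smarcb1 above, changed sign. The dimmest probe sets, of Cdkn2a, Cdkn1b and Rbl1, lie near background, which limits what can be seen in them.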
